A study of Mus musculus with 18 samples.

Results

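A set of 8 genes that mark neutrophils was followed in mouse lung messenger RNA: S100a8, S100a9, Csf3r, Cxcr2, Retnlg, Mmp9, Il1b and Ngp. They were chosen by symbol from the deposited table of gene levels, and all 8 of the 8 named genes were among its 13384 genes. The level is given in FPKM, a count of fragments scaled to transcript length and to the size of the library, so levels of different genes can be set side by side within a library. Between these libraries the scale itself shifted, as described below. The study asked how mesenchymal stem cells act on messenger RNA and tRNA-derived small RNA in mouse lung when chronic obstructive pulmonary disease (COPD) is modelled, and the small RNA libraries were not used here. There were 3 groups of 3 mRNA libraries. The BMSC-treated mice had the COPD model and an injection into the tail vein of 4000000 bone marrow mesenchymal stem cells (BMSCs) in 100 µl of phosphate-buffered saline (PBS). The COPD model mice were exposed to cigarette smoke, had cigarette smoke extract injected into the peritoneum, and received PBS without cells. The control mice received PBS, and no group carried a transgene or deletion by the labels. Strain, age and the time between treatment and sampling were not given in the sources used here, nor was it stated whether the 3 libraries of a group came from separate animals, so the p-values measure the spread between these libraries only.

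Neutrophils are short-lived white blood cells that leave the bone marrow, circulate in blood and enter tissue at sites of injury, and the small vessels of the lung normally hold many of them. S100a8 and S100a9 encode the subunits of calprotectin, a calcium- and metal-binding protein that makes up a large share of the neutrophil cytosol and is released at sites of inflammation. Csf3r encodes the receptor for granulocyte colony-stimulating factor, which drives the making and release of neutrophils. Cxcr2 encodes the chemokine receptor that draws them into tissue. Retnlg and Ngp encode a resistin-like protein and a granule protein that are abundant in mouse marrow neutrophils. Mmp9 encodes gelatinase B, a protease of the later granules that cleaves denatured collagen. Il1b encodes interleukin-1β, an inflammatory cytokine that monocytes and macrophages also make.

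S100a8 (ENSMUSG00000056054.9, chr3:90669071-90670034) and S100a9 (ENSMUSG00000056071.12, chr3:90692630-90695721) lie 22595 bases apart on chromosome 3, on opposite strands. The other genes are on 5 other chromosomes: Cxcr2 at chr1:74153994-74161246, Mmp9 at chr2:164940326-164955850, Il1b at chr2:129364569-129371164, Csf3r at chr4:126023441-126044975, Ngp at chr9:110419808-110423012 and Retnlg at chr16:48872608-48874498. These coordinates are those of the RefSeq genes. The build of the deposited levels is mm10 per the submitters' processing notes. A promoter, taken as 250 bases before to 50 bases after the annotated start, was matched for 7 of the 8 genes in RefSeq on build GRCm38.p6. Short motifs known from myeloid and other promoters were searched on both strands. They were TTGCNNAA, a core bound by C/EBP factors (TTNNGCAA on the other strand), GAGGAA, a core bound by PU.1 (TTCCTC on the other strand), and TATAAA, the TATA box core. Among the 7 promoters, TTGCNNAA was found in 3, against 10.8% of the 32851 promoters of the table. GAGGAA was found in 3 of the 7, against 28.3% of all promoters, and TATAAA was also found in 3, against 13.6%. The promoters of S100a8, S100a9 and Cxcr2 are shown because these genes had the most similar levels across libraries, and that of Ngp because it holds the C/EBP core in both orientations. They are written 5′ to 3′ on the strand of the gene, with the matches in capitals. The windows are chr3:90668821-90669120 (+) for S100a8, chr3:90695672-90695971 (-) for S100a9, chr1:74153744-74154043 (+) for Cxcr2 and chr9:110419558-110419857 (+) for Ngp.
S100a8: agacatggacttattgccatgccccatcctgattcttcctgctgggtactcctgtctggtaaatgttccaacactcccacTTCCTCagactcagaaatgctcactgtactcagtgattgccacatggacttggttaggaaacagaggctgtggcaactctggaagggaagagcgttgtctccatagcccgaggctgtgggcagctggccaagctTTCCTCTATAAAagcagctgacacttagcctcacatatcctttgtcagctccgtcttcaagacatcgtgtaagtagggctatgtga
S100a9: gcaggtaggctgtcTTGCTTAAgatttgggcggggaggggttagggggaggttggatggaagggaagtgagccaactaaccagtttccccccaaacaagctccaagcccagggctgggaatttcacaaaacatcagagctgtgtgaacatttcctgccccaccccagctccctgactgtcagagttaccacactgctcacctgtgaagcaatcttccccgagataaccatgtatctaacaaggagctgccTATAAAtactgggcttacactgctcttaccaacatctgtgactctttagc
Cxcr2: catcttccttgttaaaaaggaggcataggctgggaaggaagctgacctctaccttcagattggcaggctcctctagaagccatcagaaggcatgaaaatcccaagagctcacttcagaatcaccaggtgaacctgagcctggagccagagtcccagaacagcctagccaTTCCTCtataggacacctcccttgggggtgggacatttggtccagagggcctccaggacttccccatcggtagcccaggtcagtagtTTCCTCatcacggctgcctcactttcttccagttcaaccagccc
Ngp: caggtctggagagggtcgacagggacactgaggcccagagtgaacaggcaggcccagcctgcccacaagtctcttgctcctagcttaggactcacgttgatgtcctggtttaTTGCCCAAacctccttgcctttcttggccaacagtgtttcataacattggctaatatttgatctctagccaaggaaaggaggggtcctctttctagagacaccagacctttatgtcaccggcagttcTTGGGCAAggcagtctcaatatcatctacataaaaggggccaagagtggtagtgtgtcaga
The S100a8 window holds the PU.1 core on the other strand at 170 and 36 bases before the start, and the second copy runs directly into the TATA box core at 30 bases. The S100a9 window holds a C/EBP core at 236 bases before the start and a TATAAA at the annotated start itself. In Cxcr2 the PU.1 core stands at 81 bases before the start and again 6 bases after it. Ngp has the C/EBP core once in each orientation, at 138 and 11 bases before the start. Among the other promoters, Retnlg has the C/EBP core at 246 bases before the start, Csf3r the PU.1 core at 86 and Il1b the TATA box core at 31. The annotated starts used for Csf3r and Il1b lie inside the gene spans given above. Their windows are chr4:126024409-126024708 (+) and chr2:129371090-129371389 (-). All motif hits are matches of letters, and binding was not measured.

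The libraries differed in make-up in ways that touch every level below. The 13 genes encoded in mitochondria took 92.2%, 70.8% and 55.6% of the summed FPKM in BMSC-treated libraries 1, 2 and 3, 30.0%, 28.3% and 23.9% in the COPD model libraries, and 89.3%, 65.1% and 46.9% in the control libraries. BMSC-treated 1 and control 1 stood apart: 1193 and 1038 genes were listed at 0 in them, against 107 to 201 in the other 7. The gene of the club cell secretoglobin, Scgb1a1, took 1.32% to 6.27% of summed FPKM in BMSC-treated, 33.0% to 39.2% in COPD model and 1.02% to 19.0% in control libraries. With these shares the whole distribution moved. Over the 11765 genes with at least 1 FPKM in at least 3 libraries, the median change on the log2(FPKM + 1) scale was 0.66 in COPD model against control, -0.75 in BMSC-treated against COPD model and -0.10 in BMSC-treated against control libraries. Changes of the neutrophil genes are therefore given both as measured and relative to these medians, and the part of the library make-up in them was not tested. All 10 lung epithelial and endothelial markers were present in all 9 libraries, but their levels varied. Foxj1 was at 1.33 FPKM in control 1 and 100.2 FPKM in COPD model 2, and Epcam at 5.02 and 84.2 FPKM in the same libraries. A lower level in whole lung can mean fewer neutrophils or less of the RNA in each, and these cannot be told apart.

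S100a9 and S100a8, the calprotectin genes, had the highest FPKM of the 8 genes in every library. S100a8 measured 61.1, 63.2 and 96.6 FPKM in BMSC-treated libraries 1, 2 and 3, against 45.1, 106.0 and 42.4 FPKM for COPD model libraries 1, 2 and 3 and 331.5, 296.7 and 54.1 FPKM for control libraries 1, 2 and 3. S100a9 measured 83.9, 104.2 and 155.2 FPKM in BMSC-treated libraries, against 58.1, 121.7 and 57.1 FPKM for COPD model libraries and 428.2, 467.1 and 71.7 FPKM for control libraries. Library numbers keep this order below. For both subunits control 1 and control 2 stood well above the other 7 libraries: control 1 had 3.13 times the highest of these for S100a8 and 2.76 times for S100a9. Control 3 fell inside the range of the 6 smoke-exposed libraries, so the control group overlapped both others. The group means were 73.6 ± 19.9 FPKM for BMSC-treated, 64.5 ± 36.0 for COPD model and 227.4 ± 151.1 for control libraries for S100a8, and 114.4 ± 36.7, 79.0 ± 37.0 and 322.3 ± 217.9 FPKM in the same order for S100a9 (SD, n = 3 each).

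The receptor genes were expressed at a small fraction of the level of the calprotectin genes but stood out in the same 2 libraries. Csf3r was at 0.664, 1.53 and 3.79 FPKM in BMSC-treated libraries, against 0.921, 1.93 and 2.05 FPKM in COPD model libraries and 4.68, 4.95 and 1.35 FPKM in control libraries. Cxcr2 was at 0.640, 0.460 and 1.41 FPKM in BMSC-treated libraries, against 0.240, 1.27 and 0.540 FPKM in COPD model libraries and 3.88, 2.76 and 0.589 FPKM in control libraries. Both receptors were highest in control 1 and control 2, with control 3 among the smoke-exposed libraries. For Csf3r the gap was small, since control 1 had 1.23 times the level of BMSC-treated 3, the highest of the other 7. For Cxcr2 control 1 had 2.76 times the highest of the other 7 libraries.

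The genes of secreted and granule products showed the same order with 1 exception. Retnlg was at 11.2, 17.9 and 20.0 FPKM in BMSC-treated libraries, against 11.4, 30.1 and 17.4 FPKM in COPD model libraries and 69.7, 92.5 and 8.55 FPKM in control libraries. It spanned both extremes within the control group: control 2 was the highest of the 9 libraries and control 3 the lowest, below all 6 smoke-exposed libraries. Ngp, at 1.56, 0.909 and 0.147 FPKM in BMSC-treated libraries, 0.214, 0.917 and 0.465 FPKM in COPD model libraries and 2.39, 3.84 and 0.620 FPKM in control libraries, had the widest span, 26.1-fold between the highest and the lowest library. BMSC-treated 3 was its lowest library, although it was the highest BMSC-treated library for the other 7 genes. Mmp9 was the exception, at 0.410, 0.429 and 1.24 FPKM in BMSC-treated libraries, 0.583, 0.970 and 0.940 FPKM in COPD model libraries and 1.47, 0.634 and 0.952 FPKM in control libraries. Control 1 was still its highest library, but control 2 lay among the lower ones and the 3 groups shared most of their range. Il1b, the cytokine, was at 3.56, 2.07 and 5.01 FPKM in BMSC-treated libraries, 2.83, 7.40 and 3.29 FPKM in COPD model libraries and 11.9, 8.61 and 3.80 FPKM in control libraries. Its highest smoke-exposed library, COPD model 2, came close to control 2.

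**Figure D1:**
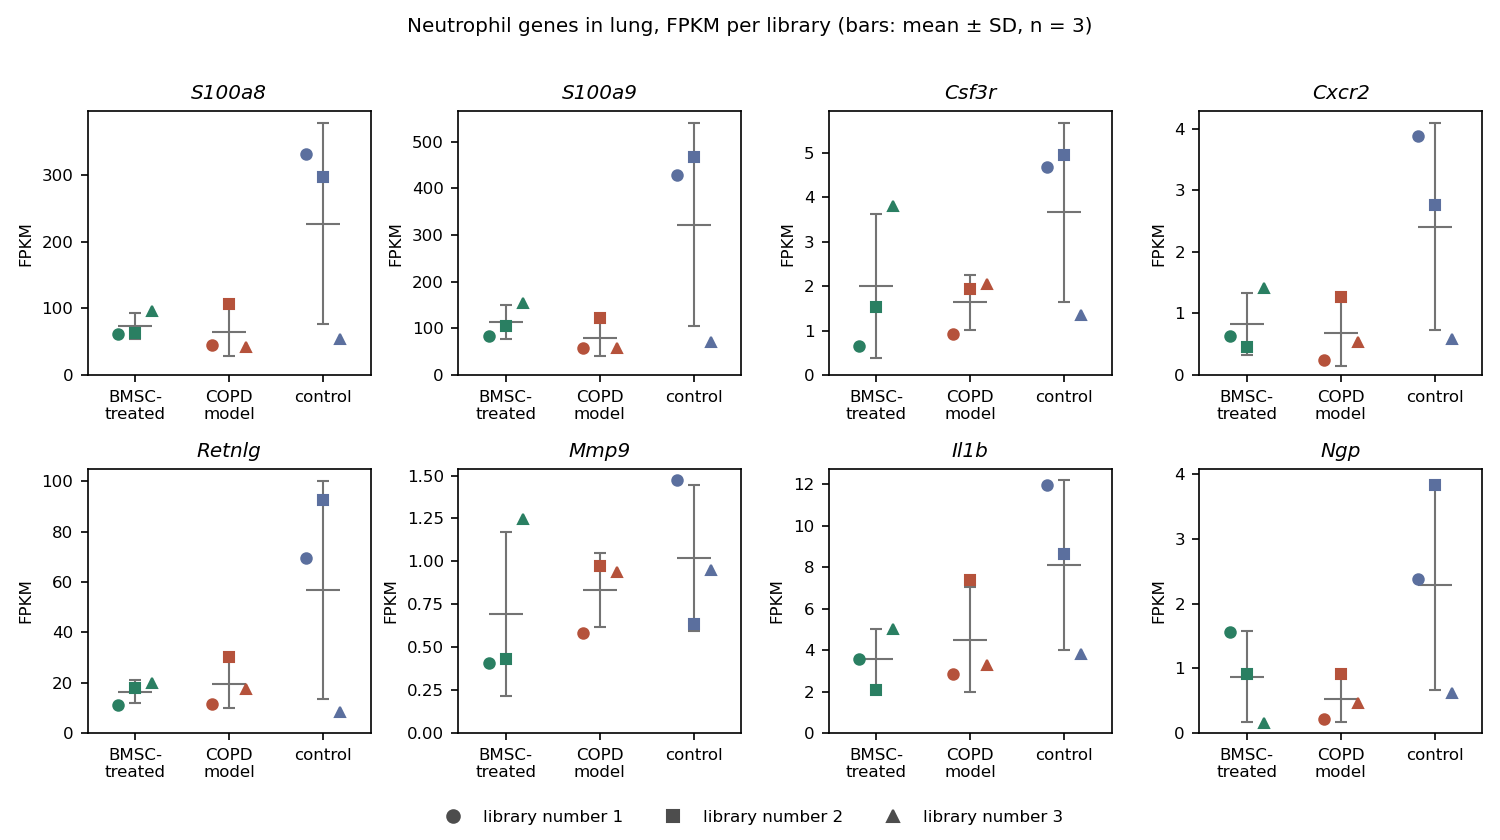
FPKM of the 8 neutrophil genes (y axis, linear from 0, 1 panel per gene) in BMSC-treated, COPD model and control libraries; each symbol is 1 library, its shape gives the library number, and the bars are the mean ± SD of 3. Control 1 and control 2 lie above all other libraries for 7 of the 8 genes, while control 3 lies within or, for Retnlg, below the range of the smoke-exposed libraries.

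In 7 of the 8 genes, all but Mmp9, control 1 and control 2 were both above the other 7 libraries. Of the 11765 tested genes, 0.221% had that pattern in FPKM. Relative to the median of each library the pattern held for 5 of the 8 genes, S100a8, S100a9, Csf3r, Cxcr2 and Retnlg, against 3.88% of all tested genes. For Il1b and Ngp BMSC-treated 1 then moved between the 2 controls. The pattern was described after the values were seen, so it has no test. From low to high, the group means ran COPD model, BMSC-treated, control for 5 genes (S100a8, S100a9, Csf3r, Cxcr2, Ngp) and BMSC-treated, COPD model, control for 3 (Retnlg, Mmp9, Il1b). Neighbours in that order overlapped for every gene.

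In COPD model lungs against control lungs, all 8 genes had a lower mean, and none passed the test. Of the 11765 genes in the limma fit on log2(FPKM + 1), 0.0765% were called at an adjusted p under 0.05, and 0 of the 7 neutrophil genes in it were. Mmp9 reached 1 FPKM in 2 libraries and was not in that fit, whereas Ngp entered it with 3 (control 1, control 2 and BMSC-treated 1) and Cxcr2 with 4. S100a9 had a log2 change of -1.71 ± 0.78 (SE, 95% interval -3.24 to -0.17, limma adjusted p = 0.514) and S100a8 one of -1.56 ± 0.79 (interval -3.12 to 0.0022, limma adjusted p = 0.514). Cxcr2 stood at -0.92 ± 0.42, Ngp at -0.99 ± 0.41, Retnlg at -1.05 ± 0.79, Csf3r at -0.73 ± 0.55 and Il1b at -0.71 ± 0.66, with limma adjusted p of 0.514 to 0.523. Because 1 is added to each FPKM, these understate the change of genes near 1 FPKM such as Cxcr2 and Ngp. Without a correction for multiple tests, S100a9, Cxcr2 and Ngp had p under 0.05 in the lower direction, as had 0.229% of all tested genes. In 18 alternative settings this held in 14 for S100a9, 12 for Ngp and 10 for Cxcr2, and all 3 genes missed it without control 2, without COPD model 1 or without COPD model 3. A change below 0 was found in 5.61% of tested genes in this comparison. The median change of the 8 genes was -0.95, or -1.61 relative to the median of all genes, and the changes of the 7 tested genes ranked from 6th (S100a9) and 9th (S100a8) to 68th (Il1b) from the lowest of 11765. Red cell and platelet markers moved the same way: the median relative to all genes was -1.57 for 7 erythroid markers, all 7 of them below the median of all genes, and -1.02 for 8 platelet markers, all 8 below it. Their part in the levels of the neutrophil genes was not tested. The groups overlapped for all 8 genes, against 0.314% of tested genes with all COPD model libraries below all control libraries, and exact two-sided permutation tests of 3 against 3 libraries gave p of 0.2 to 0.5, where 0.1 is the smallest possible.

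The size of this difference depended on which control libraries were included. Without control 1 and BMSC-treated 1, the pair that stood apart in make-up, the change was -1.30 for S100a9 (limma adjusted p = 0.694) and -1.10 for S100a8 (limma adjusted p = 0.717), Ngp was at -0.90 and Il1b at -0.40. Without control 3, the low control library, S100a9 was at -2.58 (limma adjusted p = 0.141) and S100a8 at -2.40 (limma adjusted p = 0.169). With each of the 9 libraries left out in turn the change ranged from -2.58 to -1.24 for S100a9, from -2.40 to -1.10 for S100a8, from -2.08 to -0.44 for Retnlg, from -1.43 to -0.64 for Ngp, from -1.39 to -0.58 for Cxcr2, from -1.17 to -0.50 for Csf3r and from -1.11 to -0.40 for Il1b. The larger end was without control 3 in each case, and the smaller end without control 1 for S100a8, Cxcr2 and Il1b and without control 2 for S100a9, Retnlg, Ngp and Csf3r. All 7 tested genes kept a change below 0 in each of the 18 alternative settings of this comparison.

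In BMSC-treated lungs against COPD model lungs, the 8 genes lay on both sides of 0, with S100a9 the highest, and none passed the test. The COPD model libraries enter this comparison and the last one alike, so the 2 are not independent. S100a9 had a log2 difference of 0.58 ± 0.78 (SE, 95% interval -0.96 to 2.11, limma adjusted p = 0.564) and S100a8 one of 0.29 ± 0.79 (interval -1.27 to 1.85, limma adjusted p = 0.772). Ngp stood at 0.24, Cxcr2 at 0.14, Csf3r at 0.08, Mmp9 at -0.14, Retnlg at -0.18 and Il1b at -0.24. Both intervals cover lower as well as higher levels, so neither direction was resolved. Of all tested genes 0.127% were called and 94.1% had a change below 0, while 5 of the 8 neutrophil genes had one above 0. All 8 lay above the median of all genes, with a median of 0.86 relative to it, S100a9 at 1.33 and S100a8 at 1.04. For Cxcr2 and Ngp the scale fixed this in advance. Their COPD model levels were so low that even a fall to 0 FPKM would have left them above that median. Mmp9 had little room to fall below it. The medians of the erythroid and platelet markers were 1.31 and 1.43 relative to all genes. Retnlg and Il1b turned positive, at 0.72 and 0.53, when each library was rescaled without mitochondrial genes and Scgb1a1. In FPKM the groups overlapped for all 8 genes, against 0.272% of tested genes wholly higher and 31% wholly lower in BMSC-treated libraries, and exact permutation tests gave p of 0.3 to 1.

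Set against the median of their own library, some of these genes separated the groups. S100a9 lay 5.53, 4.63 and 4.80 log2 units above the library median in BMSC-treated libraries and 3.496, 4.320 and 3.055 above it in COPD model libraries. These do not overlap. The means were 4.99 ± 0.48 in BMSC-treated and 3.62 ± 0.64 in COPD model libraries (SD, n = 3 each, exact permutation p = 0.1, the smallest that 3 against 3 can give). Csf3r and Mmp9 also did not overlap on this scale, with differences of 0.87 and 0.65, while S100a8, at 5.08, 3.92 and 4.12 in BMSC-treated against 3.14, 4.12 and 2.63 in COPD model libraries, overlapped through COPD model 2. Of all tested genes 11.3% were higher without overlap in this way. Csf3r and Mmp9 are near 1 FPKM, where the added 1 makes the value follow the library median itself. In COPD model against control lungs Mmp9 was the one gene of the 8 wholly lower on this scale, against 8.87% of tested genes, and in BMSC-treated against control lungs no gene of the 8 was, against 3.39%.

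In BMSC-treated lungs against control lungs, all 8 genes again averaged lower than in control, and again no call was made. The limma fit called 0 of all 11765 genes (0%) in this comparison, with 33 higher (0.28%) and 15 lower (0.127%) at an unadjusted p under 0.05, none of them a neutrophil gene. With the replicate block, Ngp, lower in BMSC-treated than in control within all 3 numbers, had an unadjusted p of 0.0258 and a limma adjusted p of 0.9998, and no adjusted call was made. S100a8 was at -1.27 ± 0.79 (95% interval -2.83 to 0.29), Retnlg at -1.23 ± 0.79 and S100a9 at -1.13 ± 0.78, each with a limma adjusted p of 0.9999. Il1b was at -0.94, Cxcr2 at -0.78, Ngp at -0.75, Csf3r at -0.66 and Mmp9 at -0.27. A change below 0 was found in 67.5% of tested genes. The spread of the control group moved these values in both directions. Without control 1 and BMSC-treated 1 the change was -0.69 for S100a8, -0.53 for S100a9 and -0.10 for Csf3r. Without control 3 it was -2.26 for Retnlg, -2.11 for S100a8, -2.004 for S100a9, -1.26 for Cxcr2 and -1.19 for Ngp, with a limma adjusted p of 1 for each and unadjusted p of 0.00872 to 0.0224. Leaving out control 2 gave -0.89 for S100a8, -0.66 for S100a9 and -0.62 for Retnlg. The groups overlapped for all 8 genes, against 0.382% of tested genes wholly lower in BMSC-treated libraries, and exact permutation tests gave p of 0.2 to 0.4.

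**Figure D2:**
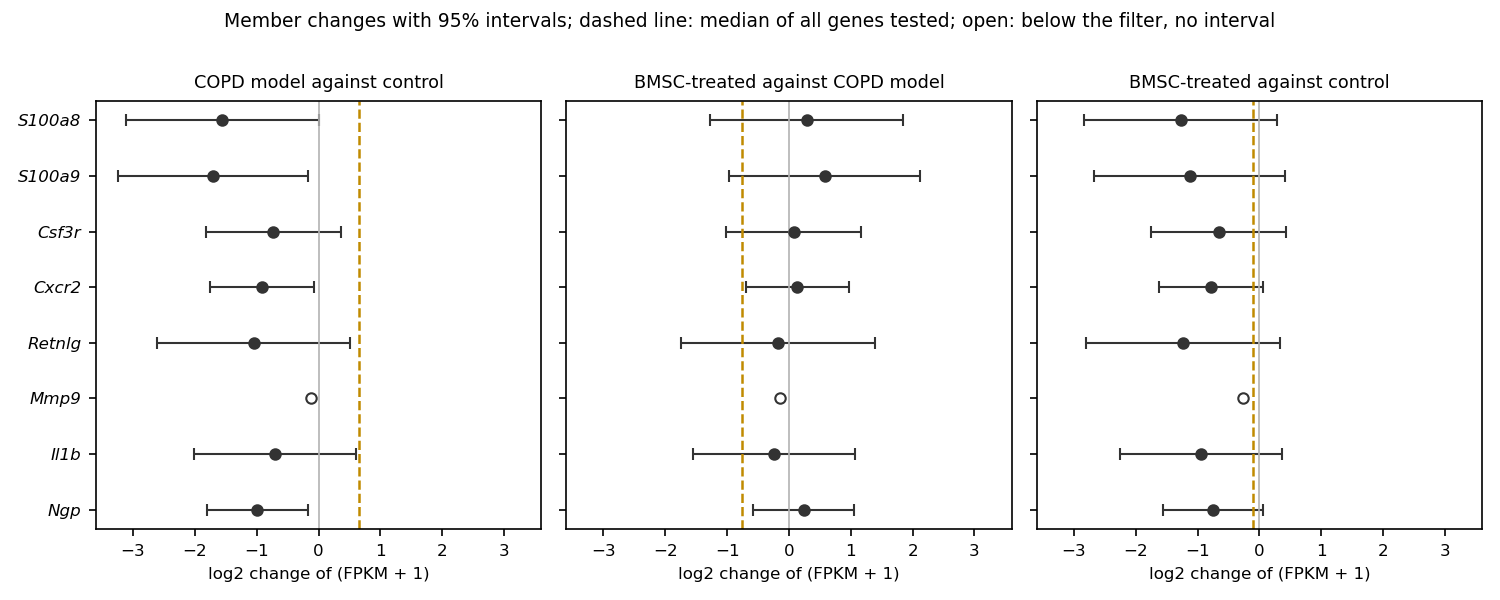
Change of each neutrophil gene on the log2(FPKM + 1) scale (x axis) for COPD model lungs against control (left), BMSC-treated lungs against COPD model (middle) and BMSC-treated lungs against control (right); points are limma estimates with 95% intervals, the open point is Mmp9, outside the fit, and the dashed line is the median of all tested genes. All 8 genes lie below 0 and below the dashed line in both comparisons with control, and above the dashed line in BMSC-treated against COPD model lungs. In that comparison Cxcr2 and Ngp were too low in COPD model libraries to fall below the line.

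Of the 8 genes, S100a8 and S100a9 had the most similar levels across the 9 libraries and Mmp9 was the least like either. Pearson's r between S100a8 and S100a9 over the 9 libraries was 0.99 both relative to the library median and without that step. It was 0.98 in the 7 libraries left when control 1 and control 2, the farthest from the median of S100a8, were taken out. Among the 21 pairs without Mmp9, r relative to the library median ran between 0.815 and 0.994 with a median of 0.933, and in the 7 libraries between 0.574 and 0.978 with a median of 0.823. Subtracting a library median gives all genes a shared term. Without it, r ran between 0.460 and 0.988 in the 9 libraries and between -0.561 and 0.943 in the 7. On that scale Mmp9 had an r of 0.41 with S100a8, 0.36 with S100a9 and -0.09 with Ngp over the 9 libraries, against 0.82, 0.80 and 0.81 relative to the library median. In the 7 libraries, again without that step, the r with S100a8 was 0.90 for Cxcr2, 0.39 for Mmp9 and 0.10 for Ngp, and Ngp had -0.56 with Csf3r and -0.59 with Mmp9.

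**Figure D3:**
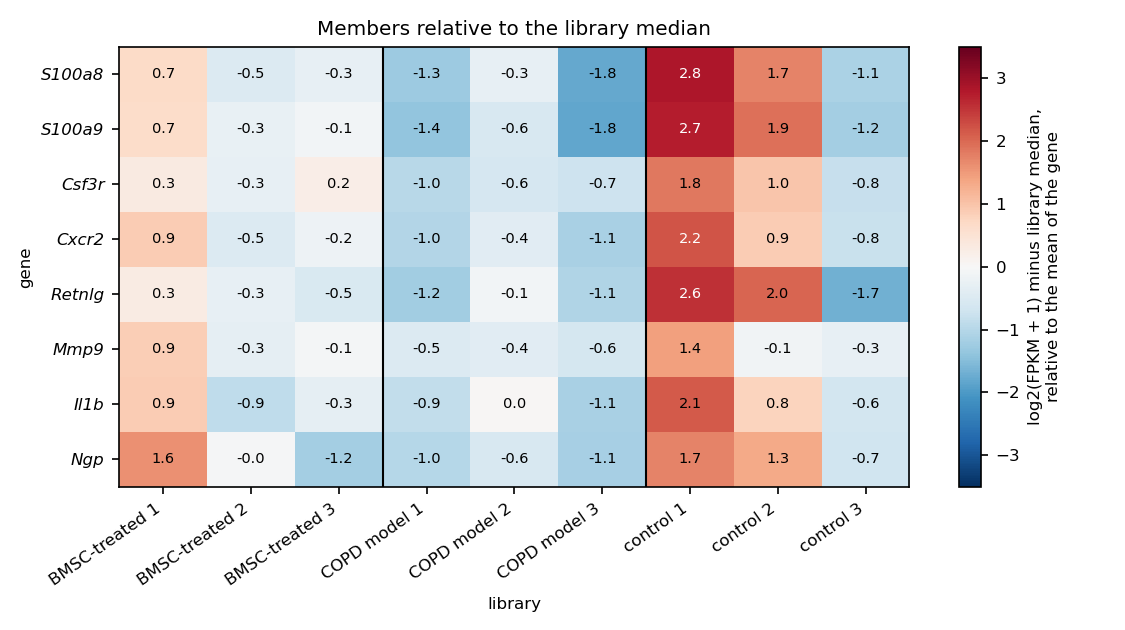
Levels of the 8 genes (rows) in the 9 libraries (columns) as log2(FPKM + 1) minus the library median, shown relative to the mean of each gene, in red where higher and blue where lower. Control 1 is the reddest column for all 8 genes and control 2 follows for 5 of them, while BMSC-treated 1 lies above the other smoke-exposed libraries for all 8. Control 1 and BMSC-treated 1 had the lowest library medians (1.13 and 0.87), which raises them on this scale. In FPKM control 2 was above control 1 for S100a9, Csf3r, Retnlg and Ngp. BMSC-treated 1 was the lowest BMSC-treated library in FPKM for S100a8, S100a9, Csf3r, Retnlg and Mmp9.

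Among the genes of the whole table closest in pattern to S100a8, 4 of the nearest 8 belonged to the set itself. By Pearson's r relative to the library median over the 9 libraries, S100a8 was nearest to S100a9 (0.994), Cxcr2 (0.979), Asprv1 (0.974), Stfa2l1 (0.968), Ccdc28a (0.965), Retnlg (0.964), Csf3r (0.960) and Clec4d (0.958). Stfa2l1 encodes a stefin A-like protease inhibitor, Clec4d a lectin receptor of myeloid cells and Asprv1 an aspartic protease. Nearest to S100a9 were S100a8 (0.994), Stfa2l1 (0.976), Asprv1 (0.972), Csf3r (0.970), Cxcr2 (0.968), Ccdc28a (0.963), Clec4d (0.961) and Retnlg (0.960). Il1b ranked 9th and Ngp 69th in likeness to S100a8. Without the library median taken off, the r of Ccdc28a with S100a8 was -0.09, while Asprv1 had 0.92, Stfa2l1 0.93 and Clec4d 0.90.

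The make-up of the neutrophil signal was examined as the ratio of each gene to S100a9 within a library, which no scaling of the library can alter. The S100a8 ratio was nearly constant, between -0.72 and -0.20 log2 units in the 9 libraries. It was -0.62 ± 0.14 in BMSC-treated and -0.33 ± 0.12 in COPD model libraries (SD, n = 3 each), without overlap. The Retnlg ratio to S100a9 was -2.80 ± 0.22 in BMSC-treated and -2.03 ± 0.31 in COPD model libraries, and the Il1b ratio -5.06 ± 0.56 and -4.17 ± 0.17 in that order, also without overlap. Each of these 3 reached the smallest exact permutation p of 0.1, which is 0.6 after adjustment over the 21 ratios tested by the Benjamini-Hochberg method. They have to be read beside the whole table: 68.4% of genes had a lower ratio to S100a9 in all BMSC-treated than in all COPD model libraries, and 5.44% had a higher one in all COPD model than in all control libraries. No ratio separated control from either other group. Ngp had the widest ratio, from -10.04 in BMSC-treated 3 to -5.75 in BMSC-treated 1.

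**Figure D4:**
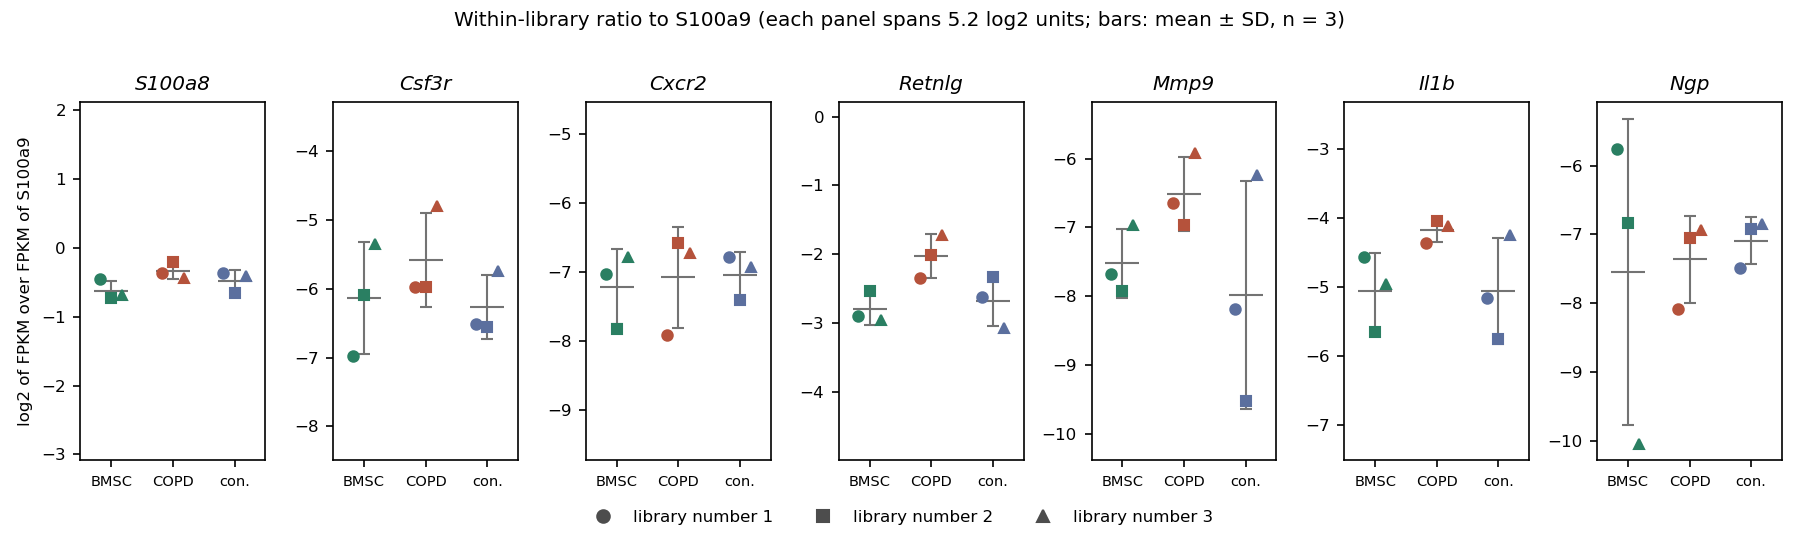
Log2 of the ratio of each gene to S100a9 in the same library (y axis, each panel spanning the same number of log2 units) in BMSC-treated (BMSC), COPD model (COPD) and control (con.) libraries; symbols are libraries and bars the mean ± SD of 3. S100a8, Retnlg and Il1b lie lower in all BMSC-treated than in all COPD model libraries, and the Ngp ratio spreads most.

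Other markers were read from a list of 15 neutrophil genes, of which 13 were measured, the 8 genes included. Ly6g and Camp were not analysed here. Stfa2l1, at 3.30, 4.15 and 12.6 FPKM in BMSC-treated, 4.22, 6.24 and 3.70 FPKM in COPD model and 18.2, 19.5 and 3.31 FPKM in control libraries, was also highest in control 1 and control 2. So was Mmp8, the neutrophil collagenase, with 0.803, 0.674 and 1.07 FPKM in BMSC-treated, 0.269, 1.02 and 1.32 FPKM in COPD model and 1.98, 3.33 and 0.210 FPKM in control libraries. The other 3 markers had another order. Ltf, which encodes lactoferrin, was at 5.23, 7.22 and 250.4 FPKM in BMSC-treated, 24.4, 31.3 and 8.07 FPKM in COPD model and 1.30, 107.0 and 15.02 FPKM in control libraries. It was lowest in control 1, where the calprotectin genes were high. Lcn2 and Cd177 had r of 0.67 and 0.32 with S100a8 relative to the library median and of 0.21 and -0.12 without that step.

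The summed FPKM of markers of other cells in blood and lung was set beside the neutrophil genes. The 8 genes summed to 163 to 283 FPKM in BMSC-treated, 119 to 270 in COPD model and 142 to 877 in control libraries. The 10 monocyte markers summed to 26.3 to 181 FPKM in BMSC-treated, 51.9 to 82.9 in COPD model and 50.2 to 79.6 in control libraries, and the 12 macrophage markers to 37.7 to 136, 82.3 to 119 and 45.5 to 108 FPKM in that order. Neither list was high in control 1 and control 2. The 8 platelet markers summed to 125 to 352 FPKM in BMSC-treated, 74.8 to 136 in COPD model and 59.7 to 284 in control libraries, and the 7 erythroid markers to 681 to 1731, 378 to 1289 and 835 to 2016 FPKM. Erythroid markers were highest in control 1 and second highest in BMSC-treated 1, whereas control 2 was in the lower part of their range. Markers of T and NK cells (8 genes) and B cells (5 genes) were highest in BMSC-treated 3, at 86.0 and 99.5 FPKM, a library in which the monocyte, macrophage and platelet sums were also the highest of the 9. The 10 lung epithelial and endothelial markers, Scgb1a1 included, summed to 9908 to 37294 FPKM in BMSC-treated, 164460 to 251489 in COPD model and 7541 to 102339 in control libraries. The r of their sum with S100a8 relative to the library median was -0.65. For single markers it was -0.70 for Foxj1 and -0.68 for Epcam, but 0.20 for Sftpc and 0.12 for Pecam1. The part of these cells in the levels of the neutrophil genes was not tested.

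**Figure D5:**
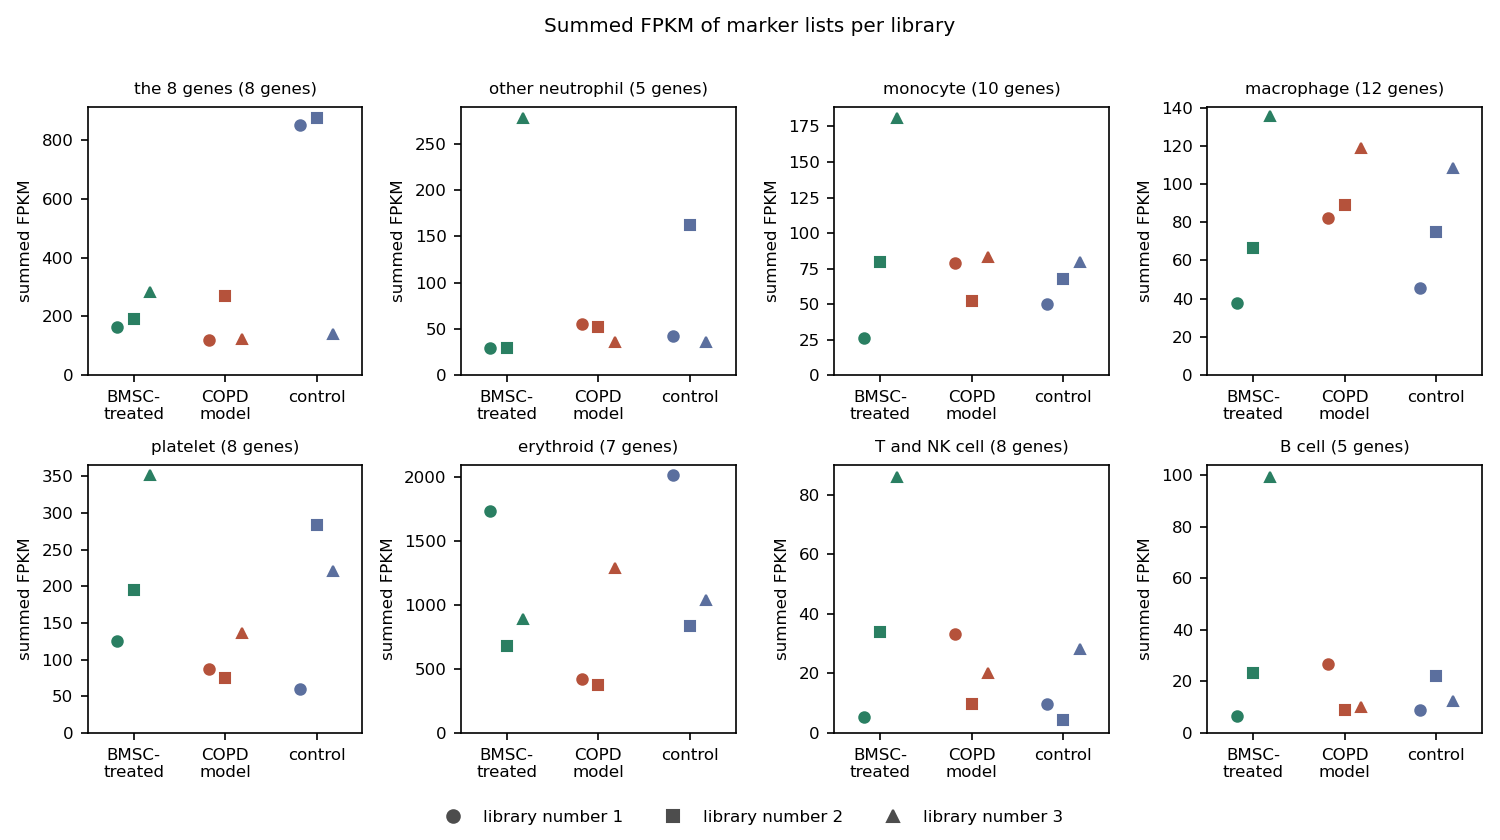
Summed FPKM (y axis, from 0) of the 8 neutrophil genes, other neutrophil markers and markers of 6 other blood and lung cell types in BMSC-treated, COPD model and control libraries; each symbol is 1 library and its shape gives the library number. The sum of the 8 genes is high in control 1 and control 2, and no other panel has those 2 libraries as its highest. In the panel of other neutrophil markers, Ltf made up 250.4 of the 278 FPKM in BMSC-treated 3, its highest library. Of the genes in that panel, Stfa2l1 and Mmp8 were highest in control 1 and control 2, and Ltf, Lcn2 and Cd177 were not.

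Genes that work with the 8 were counted in 8 lists, and none was called in any comparison by limma (adjusted p under 0.05). The lists were chosen with earlier results known, and their counts and medians stand beside those of all genes as a description. Granule proteins (10 of 15 measured, all tested) had a median change of 0.23 in COPD model against control lungs, -0.42 relative to all genes. Hp, which encodes haptoglobin, was at 241.4 ± 140.2 FPKM in BMSC-treated, 1024.5 ± 83.1 FPKM in COPD model and 594.8 ± 430.0 FPKM in control libraries (SD, n = 3 each). Its level did not follow S100a8, with r of -0.41 relative to the library median. Lyz2, the macrophage and neutrophil lysozyme, was nearly level, at 621.4, 605.5 and 535.8 FPKM in the BMSC-treated, COPD model and control means, and Bpifa1, an airway secretory protein, ranged between 4.05 and 1525 FPKM.

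Surface receptors and adhesion genes (14 of 21 tested) had a median of -0.02 in COPD model against control lungs, -0.68 relative to all genes. Cxcr4, the receptor that holds neutrophils in marrow, averaged 17.1 ± 4.9 FPKM in COPD model and 7.94 ± 4.38 FPKM in control libraries. Its log2 change was 1.08 ± 0.74 (limma adjusted p = 0.514), against a median of 0.66 over all genes. Cxcr2 was below 0, as were 5.61% of tested genes. Itgb2, the shared β2 integrin chain, and Fcgr3, an Fc receptor, differed by 0.04 and -0.09. Ligands that recruit or release neutrophils (5 of 10 tested) had a median of 0.38. Among them Ppbp, a platelet chemokine that binds Cxcr2, was at -1.17 in COPD model against control and at 1.40 in BMSC-treated against COPD model lungs, while the lung chemokine Cxcl15 was at 0.38 and -1.33 and Cxcl12 at 0.88 and -0.96. No limma adjusted p of these was below 0.375.

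The remaining lists differed in how far their medians lay from that of all genes in COPD model against control lungs. Relative to it, the interleukin-1 system was at -0.08, calprotectin receptors and S100 relatives at 0.03 and granulocyte transcription factors at 0.15. Gelatinase substrates and inhibitors were at 0.39. Oxidase and extracellular trap genes were at -0.80, the farthest of the 8 lists. In the interleukin-1 system (8 of 11 tested) the median was 0.58 in COPD model against control and -0.54 in BMSC-treated against COPD model lungs, with Casp4 at 0.99 and -1.31, Gsdmd, the pore former through which interleukin-1β leaves the cell, at 0.73 and -0.88, and Casp1, which cleaves its precursor, at 0.52 and -0.57. Il1b itself was below 0 in the first of these, as were 5.61% of all tested genes. Calprotectin receptors and S100 relatives (12 of 12 tested) had medians of 0.68 and -0.72. S100a11, S100a1 and S100a6 were at 0.87, 0.98 and 0.81 in COPD model against control lungs, where the median of all genes was 0.66. S100a8 and S100a9 had the opposite sign, as had Il1b. Gelatinase substrates and inhibitors (9 of 10 tested) had medians of 1.04 and -1.26, with Timp3, a metalloproteinase inhibitor, at 1.64 and -1.63, Timp2 at 1.21 and -1.26 and Col4a1, a basement membrane collagen, at 0.94 and -0.57. Oxidase and extracellular trap genes (7 of 9 tested) had medians of -0.14 and 0.11, or -0.80 and 0.86 relative to all genes. Rac2, a GTPase of the neutrophil oxidase, was at 4.67, 11.6 and 25.4 FPKM in BMSC-treated, 6.92, 6.07 and 6.58 FPKM in COPD model and 10.8, 11.6 and 10.6 FPKM in control libraries. All COPD model libraries were thus below all control libraries for Rac2, at a log2 change of -0.67 ± 0.72 (limma adjusted p = 0.547), as for 0.314% of all tested genes. The same held for Ncf4, another oxidase subunit, in this list (-0.34) and for Fpr1, a formyl peptide receptor, among the surface receptors (-0.57). Fpr1 was near the floor, at 0, 0.306 and 0.608 FPKM in COPD model and 0.981, 1.02 and 0.707 FPKM in control libraries. No other gene of the 8 lists did so, and Rac2, Ncf4 and Fpr1 were singled out after their values were seen. Alox5ap, which serves leukotriene synthesis, was at -0.14 and 0.29, and Cyba, an oxidase subunit found in many cells, at 0.82 and -0.80. Granulocyte transcription factors (7 of 9 tested) had medians of 0.80 and -1.21, with Cebpb at 1.25 and -1.40, Cebpa at 0.88 and -1.54 and Klf4 at 0.80 and -1.21. Lung epithelium also expresses the last 3, and their r with S100a8 relative to the library median was between -0.55 and -0.28.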

How the data were processed

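The 9 lung mRNA libraries, 3 per group, were used. RNA was extracted with Trizol, 1.5 µg was used per sample, poly(A) RNA was enriched and a stranded kit was used, per the labels' protocols. The submitters' processing notes name FastQC, cutadapt, StringTie, Bowtie and the build mm10. The role and version of each tool, and any use of strand in counting, are not given in the sources that were read. The deposited values are gene levels in FPKM, which the authors had already scaled for length and library size, per the file headers. They had removed genes low in all groups, since each of the 13384 genes reached a mean of 0.500 FPKM in some group. The ratios of low values between same-numbered BMSC-treated and control libraries did not settle whether whole reads can be recovered (82 of 892 genes under 0.3 FPKM in both libraries numbered 1 shared a ratio within 0.02 log2), so depth is unknown and no counting interval is given. No 2 libraries were identical. Of the value columns, 0 were without a sample.

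The 11765 genes with at least 1 FPKM in at least 3 of 9 libraries were fitted on log2(FPKM + 1) with limma 3.58.1 (R 4.3.3), with all 9 libraries, group means and a mean-variance trend, and p-values were adjusted by the Benjamini-Hochberg method over all of them. The fit was tested on simulated data with independent noise of capped spread and no shift between libraries. That test therefore does not cover the library shifts described above. Ratios and centred values were tested with exact two-sided permutation tests (Python 3.11.15, numpy 2.4.6). The tests of centred values and the correlations over 7 libraries were added after the values were seen. Gene positions and promoters come from RefSeq. Named are the 8 genes and, in each partner list, the 3 tested genes with the highest mean. Also named are list genes called in a comparison (none) and the 8 genes nearest to S100a8 and to S100a9. Other neutrophil markers, the named lung markers, Rac2, Ncf4 and Fpr1 were singled out after values were seen. The 8 genes, lists and comparisons were chosen with earlier results of these data known.

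The labels number the libraries of each group 1 to 3 without saying what a number shares. Deviations from the group mean correlated at 0.63, 0.19 and 0.50 between BMSC-treated and control libraries of the same number, at -0.02, 0.18 and -0.17 between COPD model and control, and at 0.05, -0.06 and -0.10 between BMSC-treated and COPD model. BMSC-treated and control libraries of different numbers correlated at 0.19 (BMSC-treated 2, control 3) and 0.31 (BMSC-treated 3, control 2). In different-number pairs with a library numbered 1, r ran from -0.58 to -0.27. This check from the data set the BMSC-treated and control libraries numbered 1 apart and did not pair number 2. Whether same-numbered libraries share anything is not known, and a replicate block was an alternative fit. Other alternatives were pseudocounts of 0.1 and 0.5, no filter, rescaling without mitochondrial genes and Scgb1a1, centring on the library median, fits of 2 groups, no trend, and leaving out libraries. The small RNA tables were not used.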

Additional observations from a re-analysis of the deposited data

How the results depend on the processing

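None of the 378 alternative fits of the 7 tested genes gave a limma adjusted p under 0.05; 363 kept the direction and 15 reversed it, all in BMSC-treated against COPD model lungs. The number of genes called across the table was less stable. In COPD model against control lungs it was 9, and 0 with a pseudocount of 0.1 or 0.5, with rescaling, with centring or with no trend, 1 with no filter, 2 with only the groups compared, 3 without control 1 and BMSC-treated 1, and 1 to 47 with single libraries left out, the highest without control 3 and the lowest without control 2 or BMSC-treated 1. In BMSC-treated against COPD model lungs it was 15, and 0 with a pseudocount of 0.1, with rescaling, centring or no trend, 1 with a pseudocount of 0.5, 6 with no filter, and 0 without BMSC-treated 1 to 35 without control 1. In BMSC-treated against control lungs it was 0, with 0 to 2 on leaving out single libraries and 6 without control 1 and BMSC-treated 1. With the replicate block the counts were 17, 34 and 0 in the same order of comparisons; in COPD model against control lungs the block gave limma adjusted p of 0.130 for S100a9 and 0.136 for S100a8, and it changed no call of the 7 genes. The cause of these shifts was not tested. In BMSC-treated against COPD model lungs Retnlg and Il1b reversed with rescaling (0.72 and 0.53) and centring (0.61 and 0.55), and Retnlg and Ngp without control 1 and BMSC-treated 1 (0.053 and -0.024). With single libraries left out the range in that comparison was -0.33 to 0.43 for Csf3r, -0.075 to 0.38 for Cxcr2, -0.47 to 0.11 for Il1b, -0.02 to 0.55 for Ngp and -0.50 to 0.17 for Retnlg. Of 168 alternatives for the ratios to S100a9, 145 kept the direction. With 1 added to both FPKM, Cxcr2 and Ngp reversed in COPD model against control (0.79 and 0.72), and Cxcr2, Il1b and Ngp in BMSC-treated against control lungs (0.35, 0.19 and 0.38); Cxcr2 reversed in COPD model against control lungs without control 1 and BMSC-treated 1 (0.090). With single libraries left out, ratios ranged in COPD model against control from -0.28 to 0.38 for Cxcr2 and -0.48 to 0.092 for Ngp, in BMSC-treated against COPD model from -0.56 to 0.17 for Cxcr2 and -1.08 to 1.06 for Ngp, and in BMSC-treated against control from -0.26 to 0.55 for Csf3r, -0.39 to 0.13 for Cxcr2, -0.36 to 0.41 for Il1b, -0.31 to 1.33 for Mmp9, -1.35 to 0.79 for Ngp and -0.32 to 0.046 for Retnlg. Depth is unknown, and 3 libraries per group leave intervals over 1.5 log2 units wide for each of the 7 neutrophil genes fitted.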
